A study of Lathyrus oleraceus with 6 samples.

Results

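The pea genome loci described here are annotated as calmodulin-like, EF-hand or calcium-binding proteins, and they are 10 of the 44756 loci in the count table. The study's authors had listed all of them as up-regulated by deacetylated chitooligosaccharides, so the members were chosen by their DESeq2 call (adjusted p below 0.05, log2 fold change of 1 or more in size) in the same comparison that is described below. The difference between the groups is therefore what selected them. It is given as a description, and the calls of edgeR and DESeq2 at these loci are not independent evidence of it. The descriptions of the loci come from database matches in the study's supplementary annotation. Nothing in the count table itself pairs a locus with a gene name, so the root origin of the libraries could not be checked with marker genes.

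The study asked which transcripts respond in pea roots to an elicitor of plant defence. The CO8-DA-treated roots came from wild-type seedlings of cultivar Frisson that were kept for 24 h in Jensen's medium with 1e-05 M CO8-DA, which are deacetylated chitooligosaccharides with a main degree of polymerization near 8. The control roots came from seedlings of the same cultivar and genotype kept for the same 24 h in that medium alone. There were 3 libraries in each group, each made from several plants, and the paper's methods call them independent biological repeats. The expression values are counts estimated per gene by RSEM, a program that divides a read between loci when it fits more than one of them, so a count need not be whole. Levels are in CPM, the rounded count in relation to a library total that edgeR scaled with TMM. The estimated counts of a library summed to between 12955804 and 19534336 in the CO8-DA libraries and between 12315774 and 14492483 in the control libraries. Whole roots hold many cell types, and in such bulk samples a change in the share of cells cannot be told apart from a change in RNA per cell.

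Calcium ions act as a second messenger in plant cells, and microbial elicitors such as chitin fragments are known to raise the calcium level of the cytosol. The EF hand is a helix-loop-helix motif that binds a calcium ion. Calmodulin and the plant-specific calmodulin-like (CML) proteins consist mostly of EF hands, change shape when calcium is bound, and then pass the signal on by binding other proteins. Many CML genes of Arabidopsis are known to respond in transcript level to touch, wounding or pathogens.

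All 10 loci were higher in each of the 3 CO8-DA libraries than in every control library. Such a complete separation upwards occurred at 13.7% of the 21293 tested loci. With edgeR's quasi-likelihood test and the thresholds of the study, 8 of the 10 loci were called higher, against 2.63% of all tested loci called higher and 3.13% called in either direction. DESeq2 on the same rounded counts called 10 of the 10, against 2.89% of the 24042 loci for which it gave an adjusted p. Since the members were selected on this contrast, nothing is read from these counts. The log2 fold changes of the 10 loci spanned 1.20 to 7.48 with a median of 3.63, beside a median of -0.01 over all tested loci.

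**Figure D1:**
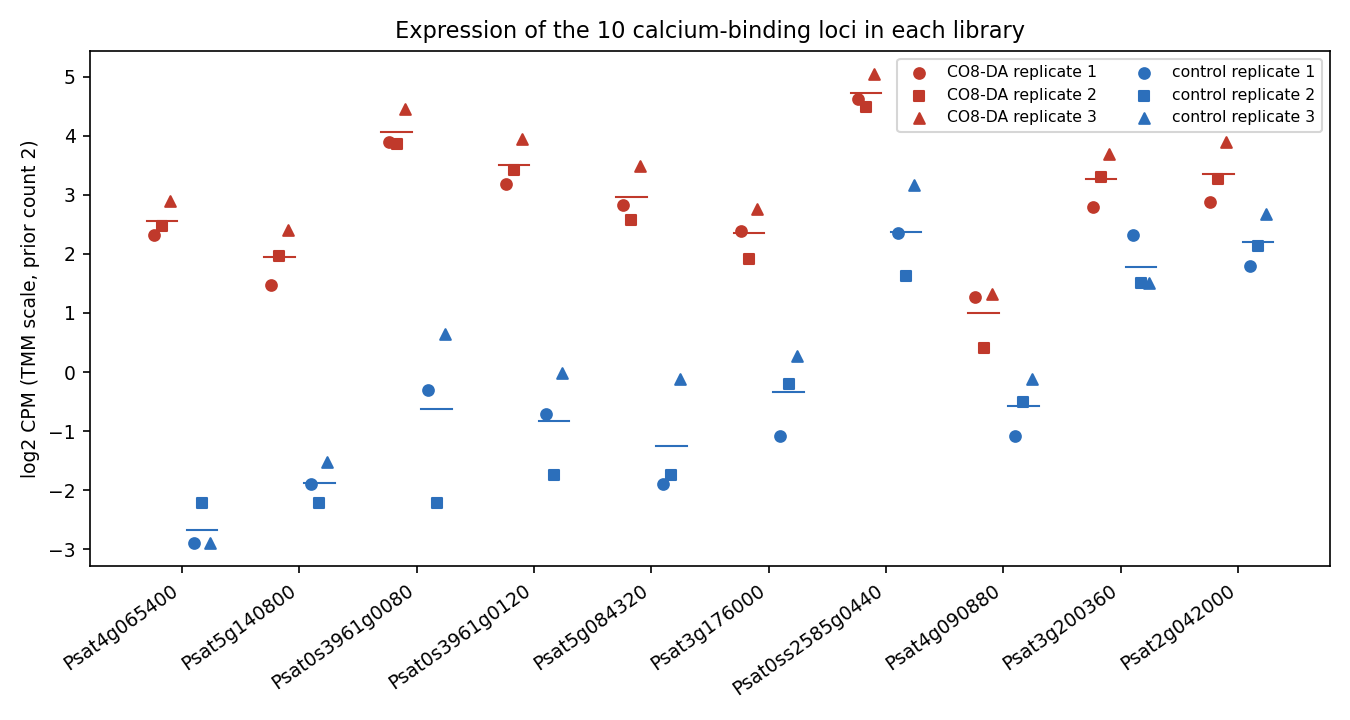
Expression of the 10 loci in each library, as log2 CPM with a prior count of 2 (vertical axis), in order of their fold change, with CO8-DA libraries in red to the left of control libraries in blue. Symbols mark the replicate number and short lines the group mean; the red symbols lie above the blue symbols at all 10 loci, and the CO8-DA triangle (replicate 3) is the highest red symbol each time.

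Psat4g065400, described as a member of the EF hand calcium-binding family, was almost without counts in the control. Psat4g065400 had estimated counts of 62, 85.55 and 143.17 in CO8-DA replicates 1, 2 and 3, against 0, 1 and 0 in control replicates 1, 2 and 3. It was thus close to undetected in the control libraries and present in each CO8-DA library, at 5.85 ± 1.30 CPM in CO8-DA-treated roots and 0.0272 ± 0.0471 CPM in control roots (SD, n = 3 each). The ratio of the rounded counts, 291 in CO8-DA-treated roots against 1 in control roots, was 247 after scaling for depth, with an exact 95% interval of 44.0 to 9795 that covers counting error only. The fitted log2 fold change of 7.48 (SE 0.58) depends on how a count of 0 is treated, and without control replicate 2, which held the only control count, it was 9.50. The control count of 1 was a whole number and so showed no sign of divided reads. In CO8-DA replicates 2 and 3 the estimates of Psat4g065400 were not whole. There its reads were divided with Psat0s3961g0080 and Psat0s3961g0120. Counted as a single unit, the 3 loci had a log2 fold change of 4.74 (SE 0.45). With 1 control count, the size of the difference at Psat4g065400 alone was not fixed.

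The next 4 loci, Psat5g140800, Psat0s3961g0080, Psat0s3961g0120 and Psat5g084320, followed with log2 fold changes that lay within 0.24 of one another and had standard errors of 0.43 to 0.55, so their order was not resolved. Psat5g140800 matches CML38-like proteins, and CML38 of Arabidopsis is known as a calcium sensor induced by wounding and by low oxygen. Psat5g140800 had estimated counts of 34, 59.92 and 100.64 in CO8-DA replicates 1, 2 and 3, against 2, 1 and 3 in control replicates 1, 2 and 3. It averaged 3.86 ± 1.26 CPM in CO8-DA-treated roots and 0.144 ± 0.0668 CPM in control roots (SD, n = 3 each), a log2 fold change of 4.66 (SE 0.46). The lowest CO8-DA library was 12.4-fold above the highest control library, the widest such gap among the loci with at least 1 count in every control library.

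Psat0s3961g0080 and Psat0s3961g0120 lie on the same unplaced scaffold by their identifiers, and both are described as EF hand calcium-binding family proteins. Psat0s3961g0080 had estimated counts of 187.62, 228.71 and 426.09 in CO8-DA replicates 1, 2 and 3, against 9.66, 1.21 and 19.75 in control replicates 1, 2 and 3. Its control libraries spread widely, yet the highest of them was 10.1-fold below the lowest CO8-DA library in CPM. Psat0s3961g0120 had estimated counts of 114.37, 167.74 and 296.74 in CO8-DA replicates 1, 2 and 3, against 7.34, 1.79 and 12.25 in control replicates 1, 2 and 3. At both loci control replicate 2 was the lowest and control replicate 3 the highest control, and CO8-DA replicate 3 was the highest CO8-DA library. Psat0s3961g0080 averaged 17.0 ± 4.20 CPM in CO8-DA-treated roots and 0.730 ± 0.675 CPM in control roots, and Psat0s3961g0120 averaged 11.5 ± 3.27 CPM in CO8-DA-treated roots and 0.498 ± 0.348 CPM in control roots (SD, n = 3 each). Both had a log2 fold change of 4.49, with standard errors of 0.52 and 0.43.

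Psat5g084320 is described as an EF hand family protein whose annotation also carries a kinase term. Psat5g084320 had estimated counts of 89, 93 and 217 in CO8-DA replicates 1, 2 and 3, against 2, 2 and 11 in control replicates 1, 2 and 3. It averaged 7.96 ± 2.77 CPM in CO8-DA-treated roots and 0.362 ± 0.368 CPM in control roots (SD, n = 3 each), a log2 fold change of 4.42 (SE 0.55). Most of its control counts came from replicate 3, and without that library the log2 fold change was 5.68. Leaving out control replicate 3 also moved Psat0s3961g0080 to 5.37 and Psat0s3961g0120 to 5.10.

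The next 3 loci had smaller differences. Psat3g176000 is described as a putative CML19, a name that in Arabidopsis belongs to a centrin, a small EF-hand protein. Psat3g176000 had estimated counts of 65, 58 and 130 in CO8-DA replicates 1, 2 and 3, against 5, 9 and 15 in control replicates 1, 2 and 3. It averaged 5.12 ± 1.50 CPM in CO8-DA-treated roots and 0.715 ± 0.367 CPM in control roots (SD, n = 3 each), a log2 fold change of 2.84 (SE 0.41). Psat0ss2585g0440, a calcium-binding EF-hand protein, had counts well above 0 in both groups. Psat0ss2585g0440 had counts of 312, 356 and 641 in CO8-DA replicates 1, 2 and 3, against 73, 36 and 123 in control replicates 1, 2 and 3. It averaged 26.5 ± 5.54 CPM in CO8-DA-treated roots and 5.56 ± 2.97 CPM in control roots (SD, n = 3 each), a log2 fold change of 2.25 (SE 0.35). The groups stood 2.55-fold apart at their nearest libraries. Without CO8-DA replicate 3 the log2 fold change was 2.06 and the locus was no longer called by edgeR. Psat4g090880, an EF hand family protein with a kinase term in its annotation, had few counts in both groups. Psat4g090880 had counts of 29, 19 and 46 in CO8-DA replicates 1, 2 and 3, against 5, 7 and 11 in control replicates 1, 2 and 3. It averaged 1.94 ± 0.645 CPM in CO8-DA-treated roots and 0.565 ± 0.223 CPM in control roots (SD, n = 3 each), a log2 fold change of 1.77 (SE 0.43) that edgeR did not call.

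The remaining loci had groups that came close to one another. Psat3g200360, an EF hand family protein, had counts of 87, 155 and 250 in CO8-DA replicates 1, 2 and 3, against 72, 33 and 38 in control replicates 1, 2 and 3. CO8-DA replicate 1 was low and control replicate 1 was high, so that these libraries were 1.39-fold apart. The means were 9.77 ± 3.00 CPM in CO8-DA-treated roots and 3.43 ± 1.26 CPM in control roots (SD, n = 3 each), a log2 fold change of 1.51 (SE 0.32). Of the 6 fits that each leave out 1 library, only the fit without control replicate 1 kept the call at this locus, with a log2 fold change of 1.86, while the others gave 1.26 to 1.71. Psat2g042000 is described as CML24, and CML24 of Arabidopsis is known as a touch-induced calcium sensor. Psat2g042000 had counts of 93, 151 and 287 in CO8-DA replicates 1, 2 and 3, against 49, 52 and 87 in control replicates 1, 2 and 3. It averaged 10.5 ± 3.81 CPM in CO8-DA-treated roots and 4.59 ± 1.48 CPM in control roots (SD, n = 3 each), a log2 fold change of 1.20 (SE 0.32), and its nearest libraries were 1.17-fold apart. edgeR did not call it, and without CO8-DA replicate 3 its log2 fold change was 0.87, under the threshold of 1.

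**Figure D2:**
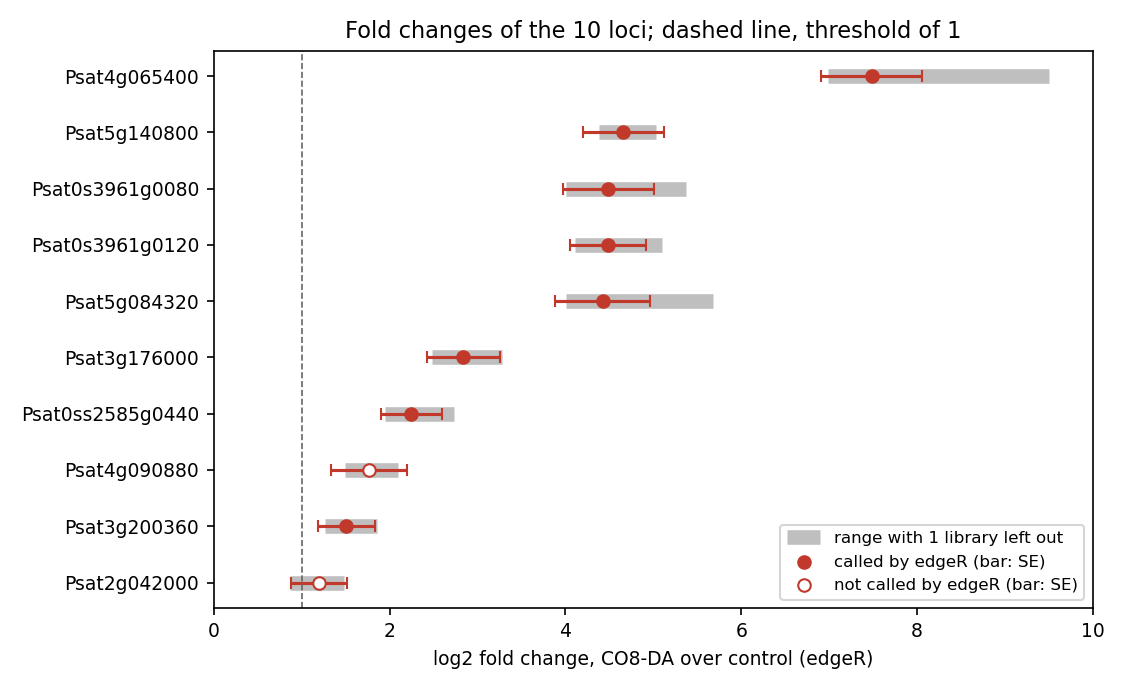
Log2 fold change of CO8-DA over control for the 10 loci from edgeR (horizontal axis), with bars for the standard error and grey bands for the range when 1 library at a time was left out. Filled points are the 8 loci called by edgeR and open points the 2 that were not, Psat4g090880 at 1.77 and Psat2g042000 at 1.20, and the dashed line marks the threshold of 1.

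The loci were selected with a threshold, and the values at its edge were as follows. By DESeq2 the lowest log2 fold change inside was 1.19, at Psat2g042000. The highest DESeq2 adjusted p inside was 0.0404, at Psat4g090880. A calcium-binding locus outside the authors' list was Psat7g135920, described as a probable CML30. Psat7g135920 had counts of 7, 25 and 46 in CO8-DA replicates 1, 2 and 3, against 5, 4 and 7 in control replicates 1, 2 and 3. Its CO8-DA libraries differed by 4.31-fold among themselves in CPM, and it did not pass edgeR's filter on low counts. By DESeq2 its log2 fold change was 1.95 and its adjusted p of 0.0929 placed it outside. All 10 members passed that filter, which asks for about 0.690 CPM in at least 3 libraries, but only 3 would have passed by their control libraries alone. The other members entered the test through the group in which they were high.

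Some members could not be counted apart from other loci. Estimates that differ from a whole number by 0.005 or more were taken as a sign of divided reads, and 4 of the 10 members had them. At Psat0s3961g0080 and Psat0s3961g0120 this held in all 6 libraries, and at Psat4g065400 and Psat5g140800 in 2 libraries each. The estimates of Psat0s3961g0080, Psat0s3961g0120 and Psat4g065400 added up to 363.99, 482 and 866 in CO8-DA replicates 1, 2 and 3, against 17, 4 and 32 in control replicates 1, 2 and 3. These sums are whole within a tolerance of 0.015, so the fractions at the 3 loci were complementary. Psat4g065400 and Psat0s3961g0080 also share the same best database match. As a single unit the 3 loci averaged 34.3 ± 8.69 CPM in CO8-DA-treated roots and 1.26 ± 0.984 CPM in control roots (SD, n = 3 each), the log2 fold change of 4.74 given above.

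Within this unit the division between the loci was steady after treatment. Psat0s3961g0080 took 51.5%, 47.5% and 49.2% of the summed estimate in CO8-DA replicates 1, 2 and 3, against 56.8%, 30.25% and 61.7% in control replicates 1, 2 and 3. Psat0s3961g0120 took 31.4%, 34.8% and 34.3% in CO8-DA replicates 1, 2 and 3, against 43.2%, 44.75% and 38.3% in control replicates 1, 2 and 3. Psat4g065400 took 17.0%, 17.7% and 16.5% in CO8-DA replicates 1, 2 and 3, against 0%, 25% and 0% in control replicates 1, 2 and 3. The control shares rest on 17, 4 and 32 counts, and shares of so few counts do not resolve whether the division differed between the groups. The separate fold changes of the 3 loci depend on how RSEM divided the reads, and the sum does not. The only other locus of the scaffold within the identifiers searched, Psat0s3961g0040, had a count of 0 in every library.

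**Figure D3:**
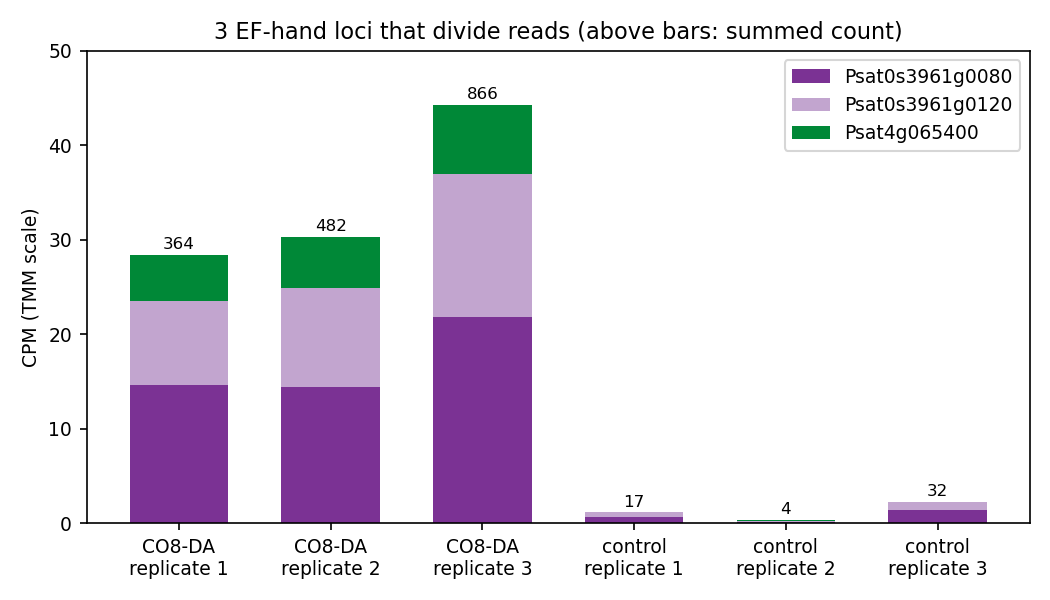
Summed level of the 3 EF-hand loci that divide reads, in CPM (vertical axis), with the CO8-DA libraries left of the control libraries and the part assigned to each locus in its own colour. The numbers above the bars are the summed estimated counts, 364 to 866 in the CO8-DA libraries and 4 to 32 in the control libraries.

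The same pattern was found for Psat5g140800 and a further CML38-like locus, Psat0s14g0160. Psat0s14g0160 had estimated counts of 0, 2.08 and 3.36 in CO8-DA replicates 1, 2 and 3, against 0 in every control replicate. Added to those of Psat5g140800 they gave whole sums of 34, 62 and 104 in CO8-DA replicates 1, 2 and 3, against 2, 1 and 3 in control replicates 1, 2 and 3. The log2 fold change of the sum was 4.69 (SE 0.47), close to the 4.66 of Psat5g140800 alone, since Psat5g140800 held nearly all of these reads. The remaining 6 members had whole counts in every library.

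The libraries of a group were not alike at these loci, which was not part of the selection. CO8-DA replicate 3 was the highest CO8-DA library at 10 of the 10 loci, while 37.7% of all tested loci and 44.0% of the loci called higher were highest in that library. At the members its CPM was 1.36-fold to 1.75-fold the mean of CO8-DA replicates 1 and 2, with a median of 1.54, beside medians of 0.99 over all tested loci and 1.04 over the 561 loci called higher. A ratio of at least 1.36 was found at 13.4% of the loci called higher and at 8.55% of all tested loci. The summed CPM of the 10 loci was 83.7, 86.4 and 130 in CO8-DA replicates 1, 2 and 3, against 15.3, 11.7 and 22.9 in control replicates 1, 2 and 3. CO8-DA replicate 3 was also the library with the largest total, 19534336, and CPM are scaled for that total. Whether its depth had a part in the higher levels was not tested.

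In the control group replicate 3 was the highest library at 8 of the 10 loci. Of all tested loci 29.1% were highest there, and of the loci called higher 43.1%. The median ratio of control replicate 3 to the mean of control replicates 1 and 2 was 1.99 at the members. It was 0.99 over all tested loci and 1.13 over the loci called higher. The exceptions were Psat4g065400, whose single control count lay in replicate 2, and Psat3g200360, which was highest in control replicate 1. The SD of log2 CPM between replicates had a median of 0.44 over the members in CO8-DA-treated roots and 0.58 in control roots, against 0.18 in CO8-DA-treated roots and 0.20 in control roots over all tested loci. Counting noise is larger at low counts, and most members had fewer than 20 counts in each control library, so its part in the control SD was not tested. The members thus varied more between replicates of either group than the typical tested locus.

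Other loci of calcium signalling were taken from the same annotation of changed genes. Their calls and their direction were fixed in part by that choice and are no independent evidence. Of all tested loci edgeR called 2.63% higher. A further 6 loci are described as EF-hand proteins. At all 6 the CO8-DA libraries lay above every control library, 5 were called higher by edgeR and 0 lower, and their median log2 fold change was 1.36 with a range of 1.08 to 2.00, below the median of 3.63 of the members. Psat0s4013g0040, whose best match is squidulin, a calcium-binding protein first described in squid, had counts of 643, 882 and 1723 in CO8-DA replicates 1, 2 and 3, against 231, 243 and 308 in control replicates 1, 2 and 3. Its log2 fold change was 1.76 (SE 0.23). The largest log2 fold change among the 6 was that of Psat4g044280 at 2.00 (SE 0.36), and Psat4g163000 at 1.08 (SE 0.29) was called by DESeq2 but not by edgeR. The count of 5 called loci was 3 without control replicate 2, 2 without control replicate 3, 2 without CO8-DA replicate 1 and 3 without CO8-DA replicate 3.

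The CO8-DA part of the members' replicate pattern recurred at these 6 loci, but not in every list whose proteins carry EF hands. CO8-DA replicate 3 was the highest CO8-DA library at 6 of the 6, with a median ratio of 1.53 to the other CO8-DA libraries and a range of 1.23 to 1.76. Of these loci Psat4g044280 at 1.23 and Psat3g116960 at 1.33 lay under 1.36, the lowest ratio of the members, and the rest lay above it. At the 4 tested loci described as calmodulin-binding, which encode candidate partners of calcium-loaded calmodulin, the ratio was 1.11 to 1.15. At the 4 calcium channels and pumps it was 0.93 to 1.16, and at the 3 respiratory burst oxidases, the EF-hand-bearing enzymes that make superoxide at the plasma membrane, 0.62 to 0.91. The PBP1-like loci spanned 1.14 to 1.59, the lipid-binding loci 0.74 to 1.73 and the calcium-dependent kinases 0.30 to 0.99. CO8-DA replicate 3 was also the highest CO8-DA library at 4 of the 4 calmodulin-binding and 3 of the 3 PBP1-like loci. That held at 2 of the 4 channels and pumps, 2 of the 4 lipid-binding loci and 0 of the kinases and oxidases. The calmodulin-binding and PBP1-like lists both hold loci that divide reads with each other, as given below, so not all their loci count separately. Control replicate 3 was the highest control at 2 of the 6 other EF-hand loci, 3 of the 4 calmodulin-binding loci and 2 of the 3 PBP1-like loci. The differences between these lists were not tested.

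The PBP1-like loci encode small EF-hand proteins, and PBP1 of Arabidopsis binds the kinase PINOID. Of the 3 such loci 3 were called higher, with log2 fold changes of 6.35 (SE 0.46) at Psat5g267320, 4.59 (SE 0.55) at Psat5g267280 and 1.84 (SE 0.27) at Psat0s1162g0080. Psat5g267320 had estimated counts of 201.84, 252.36 and 351.39 in CO8-DA replicates 1, 2 and 3, against 2.48, 0 and 6.37 in control replicates 1, 2 and 3. Psat5g267320 and Psat5g267280 both had estimates that were not whole in 5 libraries, with complementary fractions, so these loci divide reads with each other. Their separate values depend on that division, and the count of 3 called loci includes both.

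Of the 5 loci described as calmodulin-binding, 4 were tested and 4 were called higher, with log2 fold changes of 1.18 to 4.68. The highest was Psat1g036680, with counts of 290, 370 and 501 in CO8-DA replicates 1, 2 and 3, against 9, 3 and 26 in control replicates 1, 2 and 3. The fifth, Psat4g102960, which carries an IQ calmodulin-binding motif, had 0 counts in every CO8-DA library, against 4, 9 and 8 in control replicates 1, 2 and 3. It did not pass the filter of edgeR, while DESeq2 called it lower. Among the loci called higher, Psat7g011400 and Psat7g011360 had estimates that were not whole in 5 libraries each. Their fractions were complementary, so their separate values depend on the division of reads.

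Of the 4 calcium channels and pumps listed from the changed genes, 4 were called higher. Psat7g118200, a glutamate receptor 3.4 and thus of a family of calcium-permeable channels, had estimated counts of 67.94, 61.30 and 83.27 in CO8-DA replicates 1, 2 and 3, against 0 in every control replicate, which is at least 60.0-fold higher taking 3 counts over the control group as the floor. Its estimates were not whole in the 3 CO8-DA libraries, so this bound also depends on the division of reads. Psat5g257040, a calcium-transporting ATPase of the kind that removes calcium from the cytosol, had counts of 786, 1075 and 1461 in CO8-DA replicates 1, 2 and 3, against 25, 6 and 22 in control replicates 1, 2 and 3. Its log2 fold change was 5.72 (SE 0.29). The other ATPases, Psat3g061280 at 2.06 (SE 0.12) and Psat2g004960 at 2.00 (SE 0.30), had fold changes near that of Psat0ss2585g0440.

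The kinase, lipid-binding and oxidase lists were mixed. Calcium-dependent protein kinases carry EF hands and a kinase domain in 1 chain. Psat3g028080, a calcium-dependent protein kinase, was called higher at a log2 fold change of 1.26 (SE 0.22), whereas Psat2g020680 had counts of 32, 14 and 10 in CO8-DA replicates 1, 2 and 3, against 41, 92 and 62 in control replicates 1, 2 and 3, and a log2 fold change of -1.97 (SE 0.59) that edgeR did not call and that DESeq2 called lower. Of the 4 loci with calcium-dependent lipid binding, 3 were called higher and 0 lower. Psat3g009160, a copine, had counts of 31, 34 and 33 in CO8-DA replicates 1, 2 and 3, against 1, 1 and 0 in control replicates 1, 2 and 3, a ratio of 41.6 with an exact 95% interval of 11.2 to 348. Of the 3 respiratory burst oxidases, Psat3g011120 was called higher at 1.03 (SE 0.21), and Psat1g135640 at -1.37 (SE 0.26) and Psat3g140480 at -2.34 (SE 0.33) were called lower. The estimates of Psat1g135640 were not whole in 6 libraries, so its value depends on the division of reads.

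**Figure D4:**
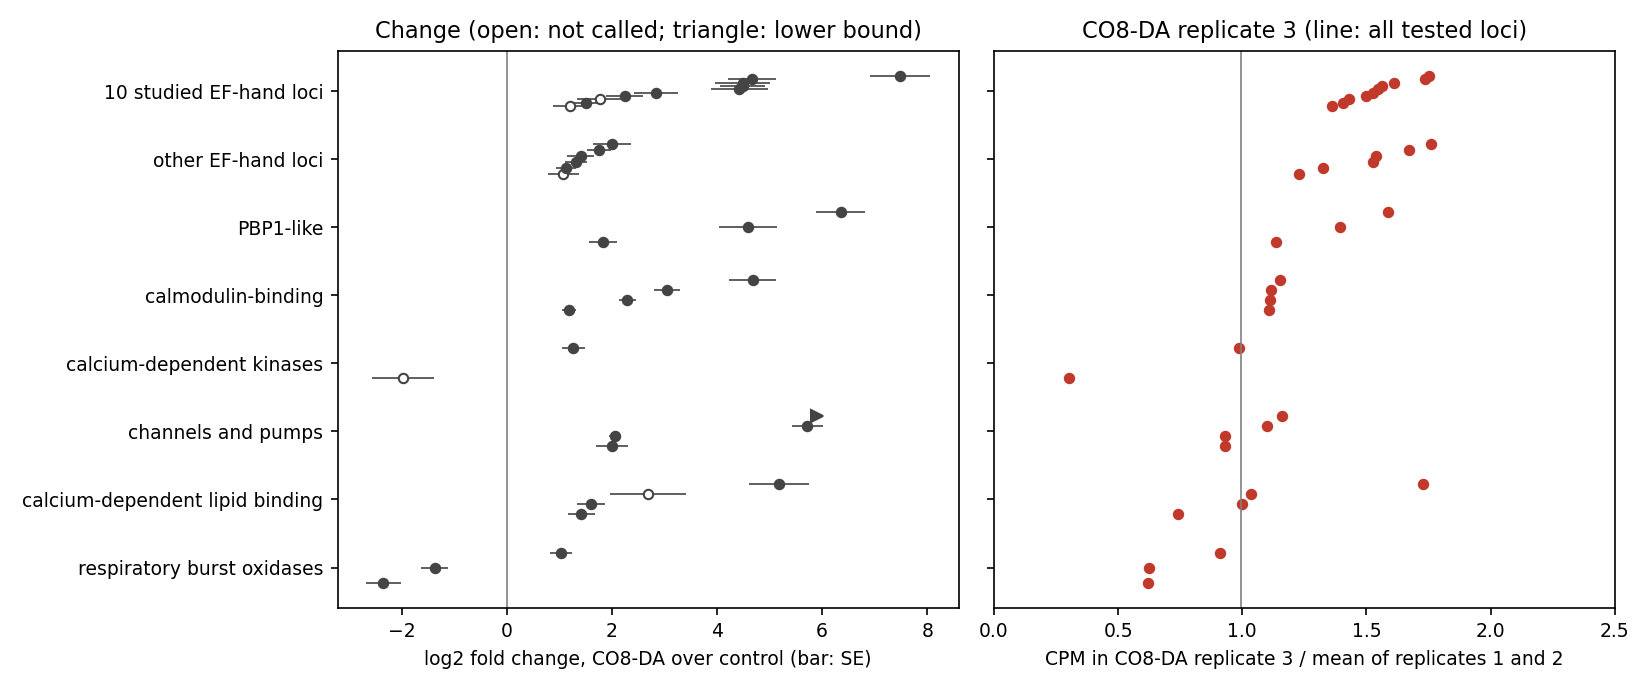
Left, log2 fold change of CO8-DA over control with its standard error for each tested locus of 8 lists of calcium signalling, with open points for loci not called by edgeR and a triangle for the lower bound of Psat7g118200, which had 0 control counts. Right, CPM in CO8-DA replicate 3 over the mean of replicates 1 and 2 for the same lists, each ordered by this ratio, where the 10 members lie between 1.36 and 1.75 and the line marks the median of 0.99 over all tested loci.

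Loci whose identifiers lie within 2 places of a member were examined as a set chosen by position, after the members themselves were taken out. Psat0s3961g0080 and Psat0s3961g0120 lie within 2 places of each other and were both called higher, so this step removed called loci. There were 33 neighbouring loci besides the members, of which 16 were tested and 12 had 0 counts in every library. By edgeR 0 of the 16 were called in either direction, beside 3.13% of all tested loci, and DESeq2 and limma-voom also called 0. An edgeR p under 0.05 before adjustment was found at 4 of the 16, beside 19.1% of all tested loci. With so few loci these counts do not set the neighbours apart from the rest. Their median log2 fold change was -0.03, with a range of -0.98 to 1.48. The highest, Psat4g065320, lies near Psat4g065400 and had estimated counts of 83.57, 54.28 and 40.37 in CO8-DA replicates 1, 2 and 3, against 9.99, 20.68 and 25.58 in control replicates 1, 2 and 3. It was highest in CO8-DA replicate 1, unlike the members, and its log2 fold change of 1.48 had an adjusted p of 0.173 by edgeR. Psat5g140840, next to Psat5g140800, had counts of 1654, 1954 and 2313 in CO8-DA replicates 1, 2 and 3, against 1878, 1600 and 1712 in control replicates 1, 2 and 3, a log2 fold change of -0.04.

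The members also differed in what else their annotation says. For 5 of the 10 it includes a response to wounding, namely Psat4g065400, Psat5g140800, Psat0s3961g0080, Psat0s3961g0120 and Psat3g176000. Their log2 fold changes lay between 2.84 and 7.48, and Psat5g084320, listed without this term, lay within that range at 4.42. Psat4g065400, Psat0s3961g0080 and Psat0s3961g0120 divide reads and are not separate cases. How often the term occurs among all loci was not determined, so nothing is read from this count. For 2 of the 10, Psat5g084320 and Psat4g090880, the annotation includes a kinase term. The annotation text of 2 members was shortened in the copy at hand, so further terms may exist.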

How the data were processed

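RNA-seq of pea roots was analysed from 3 CO8-DA and 3 control libraries, grouped by their titles. The deposited values are estimated counts (expected counts) per gene without normalization: the authors trimmed paired reads, aligned them to the pea genome v1a and counted with RSEM, and the submitters' processing notes name Trimmomatic 0.39, Bowtie2 2.4.4 and RSEM 1.3.1. RSEM divides reads between similar loci, which affects 4 members. All libraries shared a sequencing lane, according to the paper's methods.

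Counts were rounded and fitted in R 4.3.3 with edgeR 4.0.16 (filterByExpr, TMM, glmQLFit, glmQLFTest, two-sided) on all 6 libraries. P-values were adjusted by the Benjamini-Hochberg method over 21293 tested loci, and loci were called at an adjusted p below 0.05 and a log2 fold change of 1 or more in size. The standard error is the absolute log2 fold change divided by the square root of F. The common dispersion was 0.0354. An exact permutation test of 3 libraries against 3 cannot give a two-sided p below 0.1. Intervals and floors cover counting error only, as reads carry no molecular identifiers.

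Alternatives were DESeq2 1.42.0, limma-voom (limma 3.58.1), glmTreat, robust estimation, other scalings and filters, a block by replicate number or by library number, and leaving out 1 library at a time. Summing the loci that share reads was added after the data were seen. The tools were tested on simulated counts. Figures were drawn with matplotlib 3.10.9.

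The members and lists were chosen with earlier results of these data known. Loci named are all members, any locus of the lists, called neighbours, the loci on the scaffold of Psat0s3961g0080 and, for each member, the tested locus of average log2 CPM 2 or more whose centred log2 CPM pattern had the smallest root mean square difference. Psat4g065320 and Psat5g140840 were named after their values were seen. The reference at hand is of another assembly and held none of these identifiers, so sequences, lengths and positions were not used here, and levels were not compared between genes. Replicate numbers were not taken as pairs in the main fit, as the paper's methods describe no pairing. The deviations of same-numbered libraries from their group means correlated at 0.226, 0.0449 and 0.151 across loci. Libraries with different numbers correlated at -0.201 to 0.0869. These values do not settle whether same-numbered libraries were paired, and the block by replicate number was fitted as an alternative.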

Additional observations from a re-analysis of the deposited data

How the results depend on the processing

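No member changed direction under any alternative. The members called higher numbered 8 with limma-voom, DESeq2 size factors, library totals, both filters, robust estimation, the replicate block and the library number block, 10 with DESeq2 and 6 with glmTreat, a test for changes beyond 1 on the log2 scale, and 6 to 8 when 1 library was left out. With the replicate block Psat2g042000 was called and Psat3g200360 was not, and 706 loci were called in all, against 666 without it. Over all loci glmTreat called 233 and the library number block, informed only by numbers found in both groups, called 1094, while the fits that each left out 1 library called 371 to 943. Of the other EF-hand loci, glmTreat called 0 and those fits called 2 to 5, against 5. The library number block called 1 neighbouring locus, Psat4g065320, against 0. DESeq2 called 891 loci. The cause of these differences was not tested. Summing the loci that share reads, chosen after the data were seen, called 664 loci. Counts in the control libraries limit the size of the difference at Psat4g065400, Psat5g140800 and Psat5g084320.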

Other observations

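A further 4 loci described as EF-hand or calcium-dependent kinase proteins, apart from Psat7g135920, lay under the filter on low counts and outside the authors' list of changed genes. Psat6g058640, an EF hand family protein, had counts of 4, 6 and 7 in CO8-DA replicates 1, 2 and 3, against 0 in every control replicate, at least 4.81-fold higher taking 3 counts over the control group as the floor. Psat7g214040, a calmodulin-domain kinase, had counts of 8, 4 and 8 in CO8-DA replicates 1, 2 and 3, against 1, 2 and 2 in control replicates 1, 2 and 3. Psat0s158g0040, a calcium-dependent protein kinase, had counts of 0, 4 and 3 in CO8-DA replicates 1, 2 and 3, against 0 in every control replicate. The last of the 4, Psat0s14g0160, divides reads with Psat5g140800.

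The tested locus outside the members with the most similar pattern over the 6 libraries was found for each member, as the root mean square difference of centred log2 CPM. It was smallest for Psat0ss2585g0440 and Psat5g104680, at 0.0962, and largest for Psat4g065400 and Psat7g065080, at 0.412. Psat5g104680 had counts of 477, 651 and 1166 in CO8-DA replicates 1, 2 and 3, against 135, 68 and 222 in control replicates 1, 2 and 3. For Psat0s3961g0080 it was Psat6g010360 at 0.195, with estimated counts of 214, 190 and 402 in CO8-DA replicates 1, 2 and 3, against 6.97, 1 and 20 in control replicates 1, 2 and 3. Among the members the most similar pair was Psat0s3961g0080 and Psat0s3961g0120 at 0.392, which divide reads. The match is a description over 6 libraries that share 1 contrast.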
